A study of Mus musculus with 8 samples.

Results

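The genes described here encode receptors that bind dying cells, the soluble proteins that bridge receptor and cell, and the signalling proteins that drive engulfment. They are 10 of the 24516 genes in the deposited count table, taken by their symbols: the receptor genes Mertk, Axl, Lrp1, Msr1 and Havcr2, the bridge genes Gas6 and Pros1, and the signalling genes Elmo1, Dock1 and Rac1. The samples are macrophages sorted from mouse hearts by flow cytometry, which fall into 4 libraries of macrophages descended from the endocardium (EcTM) and 4 of the remaining tissue macrophages (non-EcTM). All were taken from C57BL/6 mice at postnatal day 28 with the genotype Nfatc1Cre/+; Rosa26Tomato reporter/+, so both groups carry the same alleles. Cre is made from the Nfatc1 locus, a gene of the embryonic endocardium, and the reporter marks cells with a history of Cre activity. The sources used here do not describe the sort gate.

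EcTM libraries carry the names E591, E592, E604 and E606, and non-EcTM libraries N591, N592, N604 and N606. A library was compared with the library of the same number in the other group, and values are given in the order of these names. Whether a number stands for 1 animal is not stated. The p-values of paired fits rest on the spread left after group and number are fitted. Those without pairing rest on the spread between libraries of a group. Either spread may be technical in part. Counts in genes summed to between 2152425 and 2937464 per library. Xist, which female cells express, had 1 count in E592 and 8 in N592, against 935 to 1682 in the other libraries, and the Y-linked Ddx3y had 260 and 307 counts there, against 1 to 7, so both libraries of that number differ from the others in sex. Summed levels of 14 macrophage marker genes were 27612 to 29017 CPM in EcTM, against 25369.7 to 28271 CPM in non-EcTM (CPM are read counts put on a common scale by the size of each library and its TMM factor). Of these markers 13 had counts in both groups and Itgam was listed at 0.

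A dying cell exposes phosphatidylserine, a lipid that living cells keep on the inner side of their membrane. Macrophages read it directly through receptors such as TIM family proteins, or through the bridges Gas6 and protein S, which hold the lipid at one end and a TAM receptor tyrosine kinase (Tyro3, Axl or Mertk) at the other. The receptors pass the signal to Elmo1 and Dock1, which together load the small GTPase Rac1 with GTP, and actin then closes around the cell. In the heart, resident macrophages use Mertk to clear dying cells and debris of cardiomyocytes.

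Of the 10 genes, 8 had counts and all 8 passed the filter on low counts, while Axl and Rac1 were listed at 0 in every library. The comparison asked whether EcTM and non-EcTM differ in these genes. In the paired edgeR quasi-likelihood test 0 of the 8 differed at an adjusted p under 0.05, where 1 of 7667 tested genes (0.013%), the integrin gene Itga9, did. None of the 8 had an unadjusted p under 0.05 in the paired edgeR, DESeq2 or limma-voom fits or in edgeR without pairing, against 5.4% of all tested genes in the paired edgeR fit and 3.35% without pairing. The log2 fold changes, EcTM over non-EcTM, lay between -0.12 for Elmo1 and 0.33 for Havcr2. Their median was 0.0027 beside -0.01 over all tested genes, and their median SE was 0.11 beside 0.30. Havcr2 was the 1 gene of the 8 that went the same way in 4 of 4 pairs, which 14.2% of all tested genes did (7.26% higher and 6.93% lower in EcTM). In 0 of the 8 genes did the libraries of the groups stay apart, which 2.7% of tested genes showed.

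**Figure D1:**
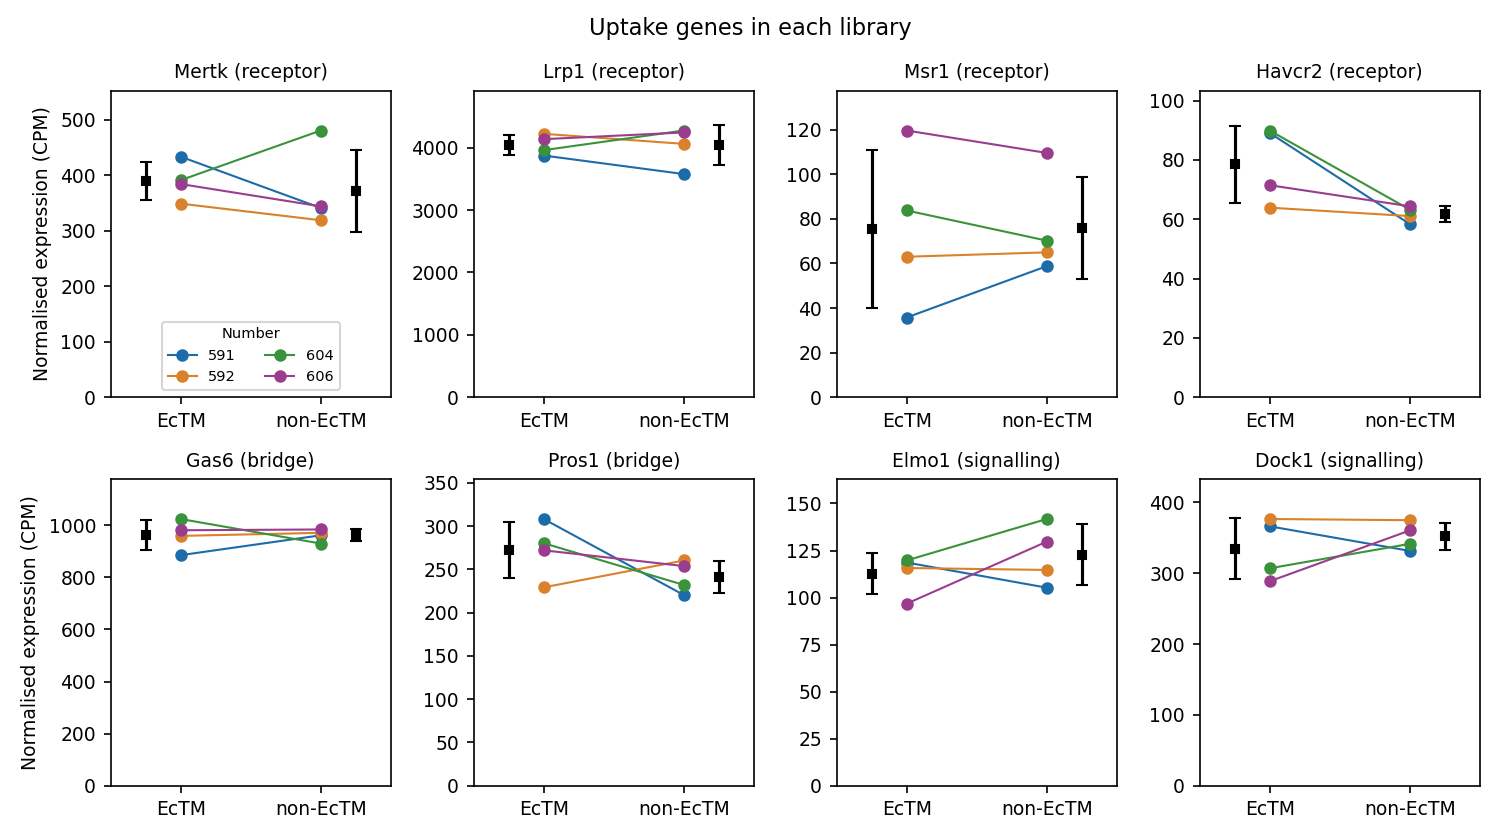
Normalised expression (CPM, vertical axis from 0) of the 8 uptake genes with counts in each library, EcTM on the left and non-EcTM on the right of each panel, with a line between each pair and a black square with bars at the mean ± SD of each group (n = 4). The groups overlap in every panel. Gas6 and Lrp1 stay nearly level, and Msr1 is lowest in E591 and N591 and highest in E606 and N606.

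Mertk, the TAM receptor through which macrophages take up dying cells bound by Gas6 or protein S, was read in all libraries. It stood at 433, 348, 391 and 384 CPM in EcTM, against 341, 319, 480.2 and 344 CPM in non-EcTM. The highest and the lowest level were both in non-EcTM, and the groups overlapped. The mean was 389 ± 34.7 CPM in EcTM, against 371 ± 73.8 CPM in non-EcTM (SD, n = 4). The paired log2 fold change was 0.08 ± 0.10 (SE) with a 95% interval from -0.13 to 0.30 and an adjusted p of 0.976 (edgeR). EcTM was higher in 3 of 4 pairs, with pair log2 ratios of 0.35, 0.13 and 0.16, and lower in E604 against N604 with -0.30. Without E604 and N604 the log2 fold change was 0.21, and without E591 and N591 it was -0.0027, neither of which passed the test. Mertk (Entrez gene 17289) spans 128698915 to 128803162 on chromosome 2 of the GRCm38 assembly and has 1 curated RefSeq transcript. The genes whose centred log2 CPM lay closest to that of Mertk over the 8 libraries were Rad54l2, Gba2 and Sec11a. Their root-mean-square differences from Mertk were 0.089, 0.097 and 0.097. A gene with no variation would lie at 0.185, and the median tested gene lay at 0.44.

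The other TAM receptor genes could not be compared. Tyro3 had 0 counts in the 4 EcTM libraries and in 3 of 4 non-EcTM libraries, and 7 counts in N591. Axl, the TAM receptor that prefers Gas6, was listed at 0 in 8 of 8 libraries, and so was Rac1, the GTPase at the end of the engulfment signal. A count of 0 allows a level of up to 0.99 to 1.43 CPM per library (3 counts, for counting error only). Why these genes have no counts was not tested. Their counts are given beside the number of transcripts of each gene, with which the counts of the uptake and pathway genes varied.

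Of the 123 uptake and pathway genes examined, 1 of 60 with 1 curated RefSeq transcript was at 0 in all libraries, against 8 of 24 with 2 transcripts and 14 of 39 with at least 3. The median total count over 8 libraries was 5514 with 1 transcript, 55.5 with 2 and 15 with at least 3. Over all genes of the table the share at 0 did not go this way: it was 42.5% of 15970 genes with 1 transcript, 40.6% of 4194 with 2 and 38.6% of 4274 with at least 3, and the median totals were 5, 6 and 6 counts. A total of at least 1000 counts, a level chosen after these shares were seen, was reached by 85% of the listed genes with 1 transcript, 37.5% with 2 and 17.9% with at least 3, beside 13.7%, 9.68% and 7.63% over all genes. Axl has 3 curated transcripts and Rac1 has 2. In the GENCODE models of GRCm38, 402 of 4283 exon bases of Axl (9.39%) and 1948 of 4216 exon bases of Rac1 (46.2%) belong to 1 curated model alone. Msr1, which has counts, has 2952 of 4006 (73.7%). Of the 8 genes with counts, Msr1 and Elmo1 have 2 curated transcripts and the other 6 have 1. Levels are compared between groups and never between genes.

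**Figure D2:**
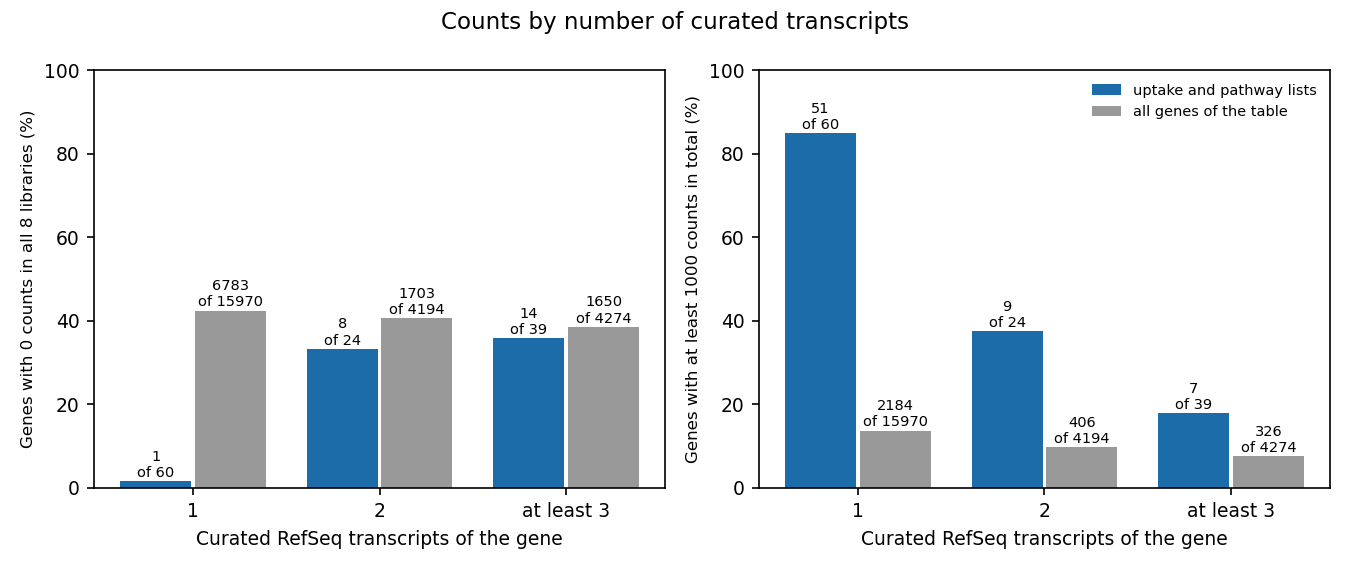
Share of genes (vertical axis, percent) with 0 counts in all 8 libraries, left, and with at least 1000 counts in total, right, by the number of curated RefSeq transcripts, for the uptake and pathway genes in blue and all genes of the table in grey, with numbers of genes above the bars. In the lists the share at 0 is 1.67% with 1 transcript, 33.3% with 2 and 35.9% with at least 3, the class that holds Axl, and over all genes it is 42.5%, 40.6% and 38.6%.

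For both genes at 0 the coding exon found in 1 of 2 GENCODE models is shown, since the coding sequences of these models differ there. The third curated transcript of Axl has no model among them and was not compared. Capitals mark the exon and lower case marks 15 bases of the spliced transcript on each side, written 5′ to 3′ on the minus strand. In Axl the exon covers 27 bases, or 9 codons, at chr7:25773099-25773125. In Rac1 it covers 57 bases, or 19 codons, at chr5:143509597-143509653, and the longer protein is known as Rac1b. The sequences are those of the GENCODE transcripts on GRCm38.
Axl: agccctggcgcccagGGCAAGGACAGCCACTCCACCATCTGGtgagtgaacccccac
Rac1: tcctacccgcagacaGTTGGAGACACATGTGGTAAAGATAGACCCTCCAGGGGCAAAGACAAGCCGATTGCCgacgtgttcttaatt

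Lrp1 encodes a large endocytic receptor that binds calreticulin on dying cells, among many other ligands. It had 8131 to 10473 counts in EcTM libraries and 9005 to 12856 in non-EcTM libraries. Its level was 3874, 4221, 3959 and 4135 CPM in EcTM, against 3576, 4060.2, 4275 and 4243 CPM in non-EcTM. EcTM was higher in the pairs of E591 and E592 and lower in those of E604 and E606. The means were 4047 ± 159 CPM in EcTM, against 4039 ± 322 CPM in non-EcTM (SD, n = 4). The log2 fold change was 0.0058 ± 0.048 (SE), and its 95% interval from -0.09 to 0.10 is the narrowest of the 8 genes. The adjusted p was 0.998 (edgeR).

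Havcr2, which encodes the phosphatidylserine receptor and immune checkpoint protein TIM-3, had the largest fold change of the 8 genes. It stood at 89.1, 63.9, 89.9 and 71.5 CPM in EcTM, against 58.4, 61.1, 63.2 and 64.4 CPM in non-EcTM. E591, E604 and E606 lay above all non-EcTM libraries, and E592 lay within their range. The mean was 78.6 ± 13.0 CPM in EcTM, against 61.8 ± 2.64 CPM in non-EcTM (SD, n = 4). The log2 fold change was 0.33 ± 0.20 (SE), or 1.26-fold, with a 95% interval from -0.08 to 0.74 and an adjusted p of 0.941 (edgeR). It did not pass, at an unadjusted p of 0.106. Pair log2 ratios were 0.60 for E591 and 0.50 for E604, and 0.06 for E592 and 0.15 for E606. Havcr2 (Entrez gene 171285) lies on chromosome 11 from 46454931 to 46481255.

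Msr1, the class A scavenger receptor for modified lipoproteins and dying cells, differed more between numbers than between groups. It stood at 35.7, 63.0, 83.8 and 119.6 CPM in EcTM, against 58.8, 65.0, 70.2 and 109.6 CPM in non-EcTM. The lowest libraries of the groups were E591 and N591, and the highest E606 and N606. The log2 fold change between groups was -0.08 ± 0.20 (SE) with a 95% interval from -0.49 to 0.34 and an adjusted p of 0.994 (edgeR). The pair of E591 and N591 had the widest log2 ratio, -0.71, and without it the log2 fold change was 0.11.

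The number term of the same edgeR fit was tested after these values were seen. It was past the threshold for Msr1 alone among the 8 genes, with an adjusted p of 0.0424, and for 233 of 7667 tested genes (3.04%). The mean log2 CPM of the numbers spanned 1.31, or 2.47-fold, for Msr1 and 0.09 to 0.38 for the other 7 genes. The call was lost, at adjusted p-values of 0.0953 to 0.502, when any of E591, E592, E606, N592 or N606 was left out, and it held without any of the other 3 libraries. The mean log2 CPM was 5.54 for E591 and N591, 6.02 for E592 and N592, 6.28 for E604 and N604, and 6.85 for E606 and N606. By Xist and Ddx3y only E592 and N592 were of the other sex, and the part of sex was not tested. What a number stands for is not stated, so animal, sex, day and library batch cannot be told apart here.

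**Figure D3:**
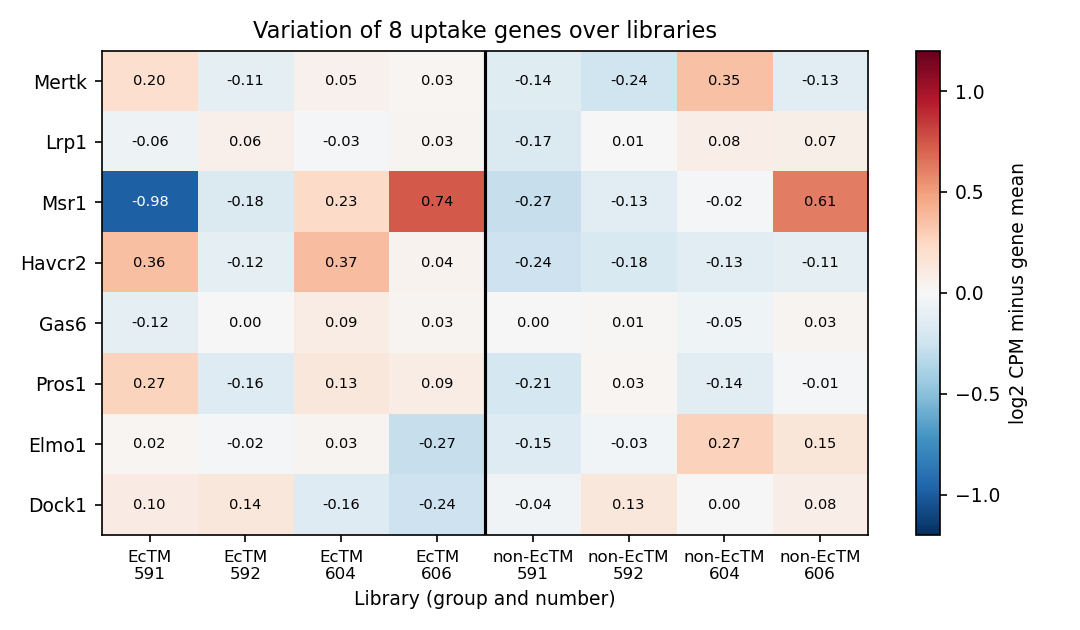
Log2 CPM of the 8 uptake genes minus the mean of each gene over 8 libraries (colour and printed value), with EcTM libraries left of the line and non-EcTM libraries right of it. Msr1 spans from -0.98 in E591 to 0.74 in E606, and its non-EcTM libraries show the same ends in a smaller range. Gas6 stays between -0.12 and 0.09.

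Transcripts of both bridges were found in both groups. Gas6, the ligand of all TAM receptors, stood at 885, 959, 1024 and 981 CPM in EcTM, against 961, 971, 929.9 and 984 CPM in non-EcTM. The EcTM libraries held both the highest and the lowest level, and the means were 962 ± 58.1 CPM in EcTM, against 962 ± 23.0 CPM in non-EcTM (SD, n = 4). The log2 fold change was -0.00052 ± 0.070 (SE) with a 95% interval from -0.15 to 0.14 and an adjusted p of 0.999 (edgeR). The SD of its log2 CPM over 8 libraries was 0.062, the lowest of the 8 genes. Msr1 had 0.54 and the median tested gene had 0.42, with no comparison made among genes of like counts. Gas6 (Entrez gene 14456) lies on chromosome 8 from 13465374 to 13494535.

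Pros1, which encodes protein S, an anticoagulant that also bridges to Mertk and Tyro3, stood at 308, 229, 280.3 and 272 CPM in EcTM, against 220.4, 260.3, 232 and 254 CPM in non-EcTM. The means were 272 ± 32.7 CPM in EcTM, against 242 ± 18.6 CPM in non-EcTM (SD, n = 4). EcTM was higher in 3 of 4 pairs and lower in E592 against N592, with pair log2 ratios from -0.18 to 0.48. The log2 fold change was 0.17 ± 0.12 (SE) with a 95% interval from -0.07 to 0.41 and an adjusted p of 0.958 (edgeR). Left-out pairs moved it between 0.06 without E591 and N591 and 0.29 without E592 and N592.

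Elmo1 and Dock1 encode the parts of the exchange factor that activates Rac1 at the forming phagocytic cup. Elmo1 stood at 119, 116, 119.7 and 96.7 CPM in EcTM, against 105, 115, 142 and 129.7 CPM in non-EcTM. Dock1 stood at 366, 377, 307 and 289 CPM in EcTM, against 332, 375, 342 and 360.4 CPM in non-EcTM. In both genes E606 was the lowest of the 8 libraries. The pair log2 ratios of Elmo1 were 0.17, 0.01, -0.24 and -0.42. Those of Dock1 were 0.14, 0.0065, -0.15 and -0.32, the same order of pairs, a likeness noted after the values were seen and not tested. The fitted log2 fold changes were -0.12 ± 0.15 for Elmo1 and -0.08 ± 0.10 for Dock1 (SE), with 95% intervals from -0.44 to 0.20 and from -0.29 to 0.13 and an adjusted p of 0.976 for each (edgeR). Without E606 and N606 they were -0.03 for Elmo1 and -0.0061 for Dock1. Dock1 (Entrez gene 330662) lies on chromosome 7 from 134670687 to 135173647 and Elmo1 (Entrez gene 140580) on chromosome 13 from 20090507 to 20608353.

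**Figure D4:**
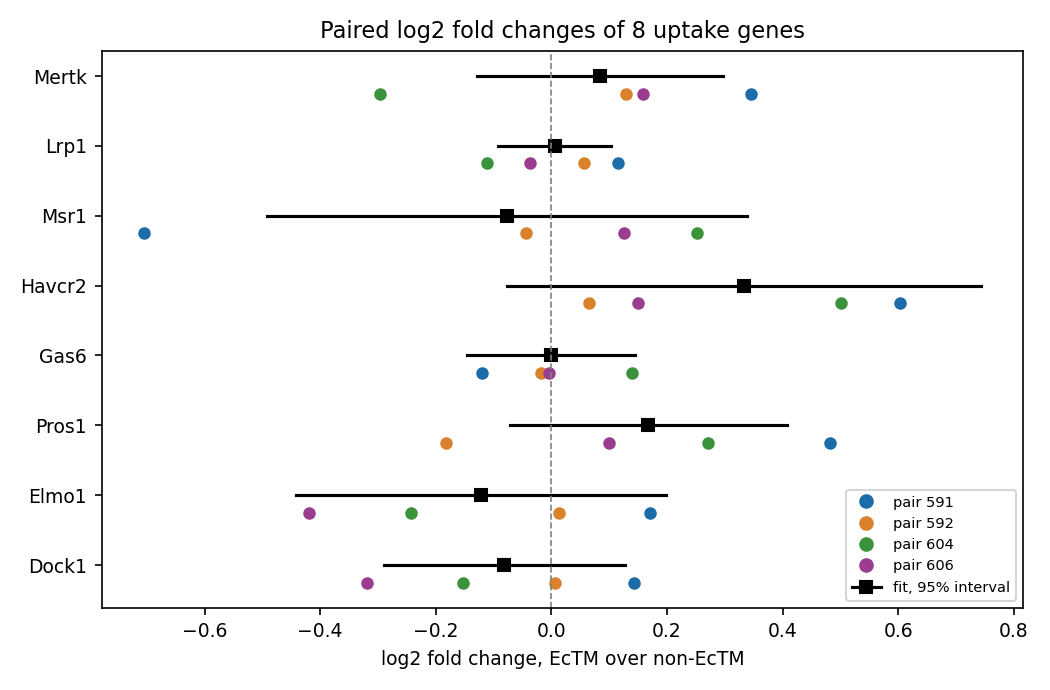
Log2 fold change of EcTM over non-EcTM (horizontal axis) for the 8 uptake genes. Black squares and bars give the paired edgeR estimate and its 95% interval, and coloured points give the ratio in each pair of libraries. Every interval spans 0, and the 4 pair ratios of Havcr2 all lie above 0.

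The pair of E591 and N591 held the widest ratio in 5 of the 8 genes (Mertk, Pros1, Lrp1, Msr1 and Havcr2), and in 31.6% of all tested genes. It was also the pair with the most transcripts of other heart cells. Summed levels of 14 endothelial markers were 337 CPM in E591, with 32.5 to 233 CPM in the remaining EcTM libraries, against 894 CPM in N591, with 88.8 to 147 CPM in the remaining non-EcTM libraries. Summed levels of 12 fibroblast markers were 137 CPM in E591, with 25.3 to 45.2 CPM in the remaining EcTM libraries, against 217 CPM in N591, with 30.5 to 40.3 CPM in the remaining non-EcTM libraries. Listed at 0 in all libraries were 7 endothelial markers, among them Tek, Emcn and Erg, and 3 fibroblast markers, Pdgfra, Postn and Mfap5. The part of these transcripts in the ratios was not tested. Endothelial cells and fibroblasts are known to make Gas6, Pros1, Axl and Lrp1 as well. In this pair the log2 ratio, E591 over N591, was 0.48 for Pros1, 0.12 for Lrp1 and -0.12 for Gas6. Axl was at 0, and both marker sums were higher in N591. In bulk RNA, fewer cells of a type and less RNA per cell cannot be told apart. Without E591 and N591 the log2 fold changes of the 8 genes ran from -0.22 for Elmo1 to 0.24 for Havcr2, and 0 passed.

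The wider pathway was read in 6 further lists of 113 genes, of which 72 were tested. None passed in the paired edgeR fit, where 7 of the 72 (9.72%) reached an unadjusted p under 0.05 (6 above 0 and 1 below 0), against 5.4% of all tested genes. The lists were chosen with earlier results of these data known, so the difference in these shares cannot be read as a result about the pathway. Among 28 other uptake receptors and bridges 11 were tested, with a median log2 fold change of -0.0053. Timd4, which encodes the phosphatidylserine receptor TIM-4 of resident macrophages, was the gene below 0 with such a p. It stood at 178, 128, 149.6 and 94.8 CPM in EcTM, against 221, 206, 143 and 166 CPM in non-EcTM. Its log2 fold change was -0.44 ± 0.15 (SE), lower in 3 of 4 pairs, with an adjusted p of 0.751 (edgeR). The collectin scavenger receptor gene Colec12 had -0.20 ± 0.10 and the complement gene C1qc, whose product coats dying cells, had 0.08 ± 0.05. Cd36, Itgb5, Cd300a and Adgrb1 were among 9 genes of this list at 0 in all libraries.

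Among 24 other engulfment signalling genes 19 were tested, with a median log2 fold change of 0.04. The actin nucleator gene Actr3 had 1.33 ± 0.47 at means of 20.99 ± 4.68 CPM in EcTM, against 8.73 ± 4.19 CPM in non-EcTM, with an adjusted p of 0.769 (edgeR). It has 3 curated transcripts. The small GTPase genes Cdc42 and Rac2, relatives of Rac1, had -0.24 ± 0.13 and 0.14 ± 0.13. Among 14 genes of receptor shedding and signal partners 9 were tested, with a median of -0.02. Socs3, a brake on cytokine signalling, had 0.16 ± 0.06 at an adjusted p of 0.778, and the phosphoinositide kinase subunit gene Pik3r1 had 0.34 ± 0.16 at 0.907 (edgeR).

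Macrophages find dying cells through receptors for released signals and are held back by others, and 10 of 13 such genes were tested, with a median log2 fold change of 0.06. The fractalkine receptor gene Cx3cr1 had 0.11 ± 0.07 and the sphingosine phosphate receptor gene S1pr1 had -0.15 ± 0.14. For digestion of the engulfed cargo 13 of 20 genes were tested, with a median of 0.02. Cybb, the catalytic subunit of the phagocyte oxidase, had 0.14 ± 0.06, higher in 4 of 4 pairs, at an adjusted p of 0.897 (edgeR), and the acid nuclease gene Dnase2a had -0.27 ± 0.17. For the response to engulfed lipid 10 of 14 genes were tested, with a median of 0.01. Ucp2, a mitochondrial carrier that supports continued uptake, had 0.20 ± 0.05 at means of 3085 ± 454 CPM in EcTM, against 2692 ± 405 CPM in non-EcTM (SD, n = 4), higher in 4 of 4 pairs. Its adjusted p was 0.413 in paired edgeR, and it passed in paired DESeq2 at 0.00809 and in paired limma-voom at 9.12e-04. DESeq2 called 24 of 3097 genes (0.775%) and limma-voom called 19 of 7667 (0.248%) in the same design, and neither called any of the 8 uptake genes. The cytokine gene Tgfb1 had 0.20 ± 0.09 at an adjusted p of 0.907 (edgeR).

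**Figure D5:**
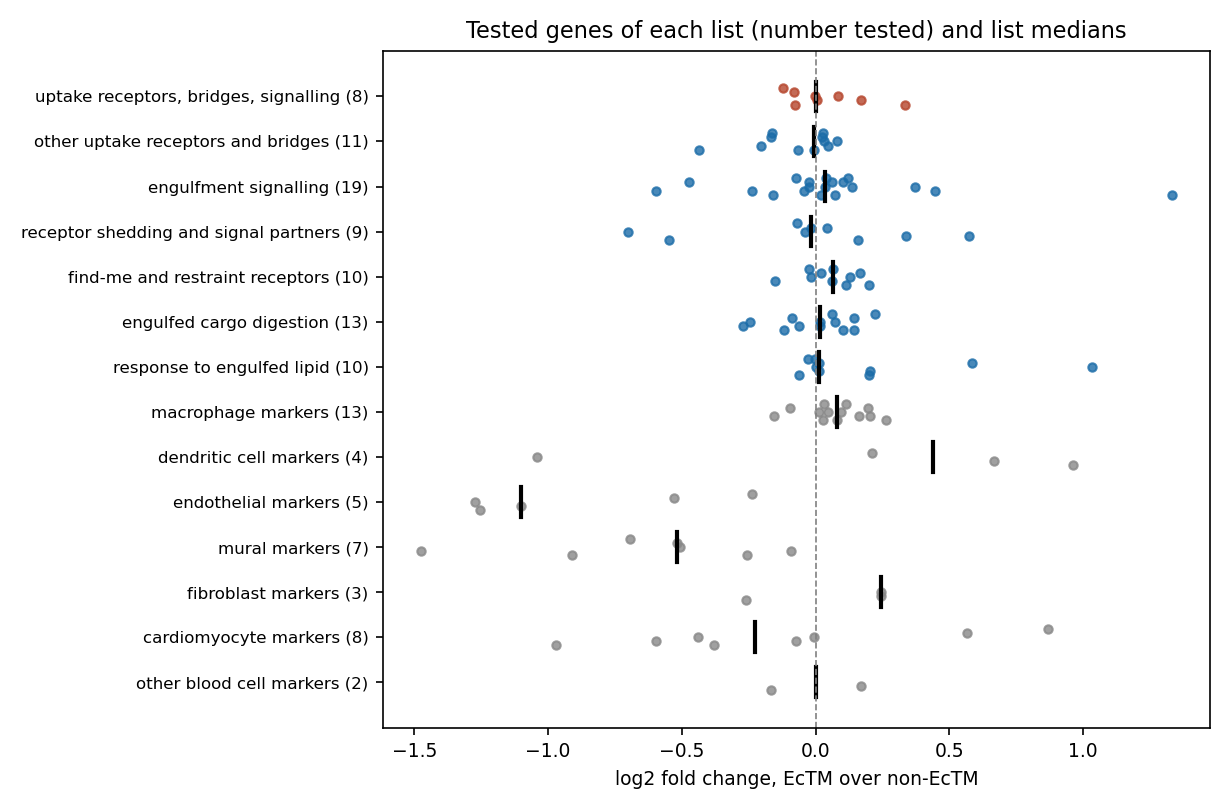
Paired log2 fold changes, EcTM over non-EcTM (horizontal axis), of the tested genes of each list, with black bars at list medians. The 8 uptake genes are in red, pathway lists in blue and cell type marker lists in grey. The uptake and pathway medians lie between -0.02 and 0.06, and the endothelial and mural medians lie at -1.10 and -0.52.

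Of the 42 tested genes in 7 lists of cell type markers 0 passed in the paired edgeR fit. At an unadjusted p under 0.05, which 5.4% of all tested genes reached, 3 macrophage markers were higher and 3 endothelial and 1 mural marker lower. The marker lists too were chosen with earlier results of these data known. Paired limma-voom called 3 of the 42, Cd14 and the endothelial phosphatase gene Ptprb included, and paired DESeq2 called 2 of 16 with an adjusted p, Cd14 included. Cd14, a co-receptor for lipopolysaccharide that also binds dying cells, stood at 1891 ± 397 CPM in EcTM, against 1564 ± 224 CPM in non-EcTM (SD, n = 4). It was higher in 4 of 4 pairs, as were 7.26% of all tested genes. Its log2 fold change was 0.26 ± 0.06 (SE), with an adjusted p of 0.277 in edgeR and 0.00455 in DESeq2. The endothelial growth factor receptor gene Kdr had -1.26 ± 0.41, and the mural myosin kinase gene Mylk had -0.91 ± 0.27, lower in 4 of 4 pairs. Of the macrophage markers 13 were tested, with a median log2 fold change of 0.08 beside -0.01 over all tested genes, and 11 were above 0. The median was 0.44 for 4 dendritic cell genes, -1.10 for 5 endothelial genes, -0.52 for 7 mural genes, 0.25 for 3 fibroblast genes, -0.23 for 8 cardiomyocyte genes and -8.7e-05 for 2 genes of other blood cells. Summed levels of mural markers were 101 to 139.6 CPM in EcTM, against 91.2 to 347 CPM in non-EcTM. Those of cardiomyocyte markers were 88.6 to 162 CPM in EcTM, against 115 to 209 CPM in non-EcTM, and those of dendritic cell markers 46.5 to 71.5 CPM in EcTM, against 40.3 to 48.4 CPM in non-EcTM.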

How the data were processed

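Libraries were made from total RNA with a stranded kit for very small RNA inputs that uses random primers, per the labels' protocols. The authors used bcl2fastq 2.17, TopHat, DESeq2 and R 3.2 with mm10, per the submitters' processing notes. The sources used here name no counting program, annotation or strand setting. The authors deposited raw counts per gene and log2 values for 8 libraries. The deposited log2 values of 14319 genes came within 0.00881 of a DESeq2 regularised log fitted with number and group, and within 0.139 of one fitted with group only. All results use the counts. The deposited start position of each gene (another column, unit other) was not used.

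Genes were kept with edgeR's filterByExpr (7667 genes, 99.3% of counts) and tested with edgeR 4.0.16 (quasi-likelihood F-test) in R 4.3.3, with TMM factors, the number as a replicate block, and Benjamini-Hochberg adjustment over all tested genes at 0.05. Each SE was derived from the fold change and its F value. DESeq2 1.42.0, limma 3.58.1 and fits without the block were alternatives. Log2 CPM use a prior count of 2. The numbers were taken as pairs by the plan of the comparison. After removal of group means, same-numbered libraries correlated across genes at a Pearson r of 0.122 to 0.186 in all 4 pairs. Libraries of different numbers correlated at -0.127 to 0.0532 (genes are not independent replicates). All 10 uptake genes were named, with Tyro3, Timd4, the genes closest to Mertk, and up to 3 genes of each other list by smallest unadjusted p. The uptake genes and the lists were chosen with earlier results of these data known. 1 macrophage marker is not reported here. The fits were tested on simulated data. Coordinates and transcript numbers are from RefSeq on GRCm38.p6, matched by Entrez number.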

Additional observations from a re-analysis of the deposited data

Results flagged for a closer look

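The level of Mertk in N604, 480.2 CPM, lay far above the other 3 non-EcTM libraries, at 319 to 344 CPM. The gap to the nearest of them was 0.845 of the range of the group, past Dixon's 95% critical value for 4 samples. It was the 1 such value in 16 groups of 4 examined (8 genes in 2 groups), and chance gives about 1 in 20. Without E604 and N604 the paired log2 fold change of Mertk was 0.21 with an adjusted p of 0.956 (edgeR).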

How the results depend on the processing

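None of the 8 uptake genes passed in any of the 20 alternatives tried (19 for Msr1 and Elmo1, which have no place among genes with 1 curated transcript). Pros1, Elmo1, Dock1 and Havcr2 kept their direction in all of theirs. Havcr2 ran from 0.24 to 0.44, with a lowest adjusted p of 0.617 in paired DESeq2. Of the gene values under these alternatives 22 changed sign and 136 did not, and the changes were in Mertk, Gas6, Lrp1 and Msr1. Gas6 was 0.0011 with no replicate block, 0.0014 with DESeq2 size factors, 0.0033 in paired DESeq2 and 4.9e-04 in paired limma-voom, and Msr1 was 2.3e-04 in paired limma-voom. Leaving out libraries or pairs moved Mertk between -0.0027 and 0.22, Gas6 between -0.049 and 0.043, Lrp1 between -0.051 and 0.043, and Msr1 between -0.32 and 0.23. The number of genes called was 1 with the block and 0 with no replicate block, 24 in paired DESeq2, 19 in paired limma-voom, 10 with no filter, 0 among genes with 1 curated transcript, and 0 to 2 with libraries or pairs left out. Of the pathway genes 1 passed in paired DESeq2 and 1 in paired limma-voom, Ucp2. The uptake genes with 1 direction in all pairs numbered 1 to 3 when a pair was left out. Fewer pairs then had to go the same way, and the share over all tested genes is not given for these settings. The causes were not tested. The number term of Msr1, a test added after its values were seen, kept its call under other scalings, filters and tools (adjusted p 0.00427 to 0.0446), and leaving out libraries or pairs gave 0.0175 to 0.637. Among uptake and pathway genes, but not by the share at 0 over all genes, counts were lower with several transcripts, which Axl, Rac1, Msr1 and Elmo1 have. At these depths the 95% intervals still allow log2 fold changes of up to 0.10 for Lrp1 and up to 0.74 for Havcr2.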
